A study of Mus musculus with 9 samples.

Results

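Oxaliplatin-treated and vehicle-treated lumbar dorsal root ganglia of mice were compared across all measured genes, using the 3 oxaliplatin libraries and the 3 vehicle libraries of a series of 9. The animals were male wild-type C57BL/6 mice of 8 to 10 weeks. The treated group had received intraplantar oxaliplatin, 40 µg in all, and the control group had received the vehicle that also served as the control for a cisplatin group (40 µg, 3 libraries). Each library held RNA from whole ganglia of the lumbar levels L3, L4 and L5 on the treated side, pooled from 4 animals, so variation between single animals was not measured. The dosing scheme, the time of dissection and any batch are not given in the labels. Read counts for 38926 gene symbols were available per library, and 17348 of them passed the filter on low counts and were tested.

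In a dorsal root ganglion the somata of neurons for touch, position, temperature and pain of the limb lie wrapped in satellite glia and are supplied by vessels that, unlike those of the brain, lack a tight barrier. Oxaliplatin is a platinum drug that crosslinks DNA. It accumulates in these ganglia, and it is known clinically for an acute cold-triggered pain, linked to altered axonal sodium and potassium currents, and for a lasting sensory neuropathy.

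Sequencing yielded 35520144 to 38808509 gene-assigned reads in the oxaliplatin libraries and 22819185 to 32022672 in the vehicle libraries, where 3 reads, the detection floor used here, correspond to 0.0711 to 0.188 CPM (gene counts scaled to a common library size). Vehicle library 2 stood apart. It had the fewest gene reads, multiply aligned reads made up 51.0% of those recorded for it, and a single predicted gene, Gm26924, took 14.8% of its gene reads. Among uniquely aligned reads, those outside any annotated feature made up 17.4% ± 0.664 in oxaliplatin (SD, n = 3, range 16.6 to 17.8%) and 33.6% ± 12.3 in vehicle (26.2 to 47.7%), so the groups did not overlap in this share. A two-sided exact permutation test gave p = 0.1 for it, the smallest p possible with 3 against 3 libraries (0.167 adjusted over 5 library properties). The part of this share in the differences below was not tested. Neuronal transcripts were abundant in every library, as the tissue label has it: Scn10a, the nociceptor sodium channel, stood at 807 CPM or more in each.

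Each gene was compared between oxaliplatin and vehicle with vehicle library 2 and again without it. The contrast between the 2 drugs is given only from the fit of all 9 libraries. A gene is said below to have risen or fallen only if it passed both ways with the same sign. To pass, it needed a Benjamini-Hochberg adjusted p under 0.05 in edgeR's quasi-likelihood test. Changes are log2 fold changes of oxaliplatin over vehicle in the fit with all libraries, and the value in parentheses after a change is the one without vehicle library 2. With vehicle library 2 the threshold was passed by 7221 genes (41.6%), 3043 upward (17.5%) and 4178 downward (24.1%), and without it by 7697 of 17711 (43.5%), 3619 upward (20.4%) and 4078 downward (23.0%). By the rule for both fits 6625 genes (38.2% of those tested) changed, 2858 upward (16.5%) and 3767 downward (21.7%). Every count of list members below is to be read beside these shares. No gene passed with opposite signs, whereas 1 did with no count filter and 1 with the 6 compared libraries fitted alone. Changes were mostly small, with a median of 0.32 among the genes that rose and -0.46 among those that fell. At least 2-fold changes in both fits were found for 225 genes that rose (1.3%) and 377 that fell (2.17%). For 8762 genes (50.5%) the 3 oxaliplatin libraries all lay on one side of the 3 vehicle libraries, above them for 23.1% and below them for 27.4% of those tested, among them 2645 of the genes that rose and 3615 of those that fell. The upward count rested partly on single libraries: it was 1636 without vehicle library 1, 1859 without vehicle library 3, 1836 without oxaliplatin library 2 and 1851 without oxaliplatin library 3, and 3084 without oxaliplatin library 1. The downward count ranged from 2584 to 3796 over the same settings. These values are relative to TMM scaling, which places the median gene near 0. Scaling to library totals alone raised the median of all tested genes to 0.30 (0.18), and 5654 genes then passed upward and 965 downward. All 2858 genes that rose still passed in that direction, and 965 of the 3767 that fell did (25.6% of these, 5.56% of all tested), so the decreases described below are decreases relative to the bulk of genes.

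**Figure D1:**
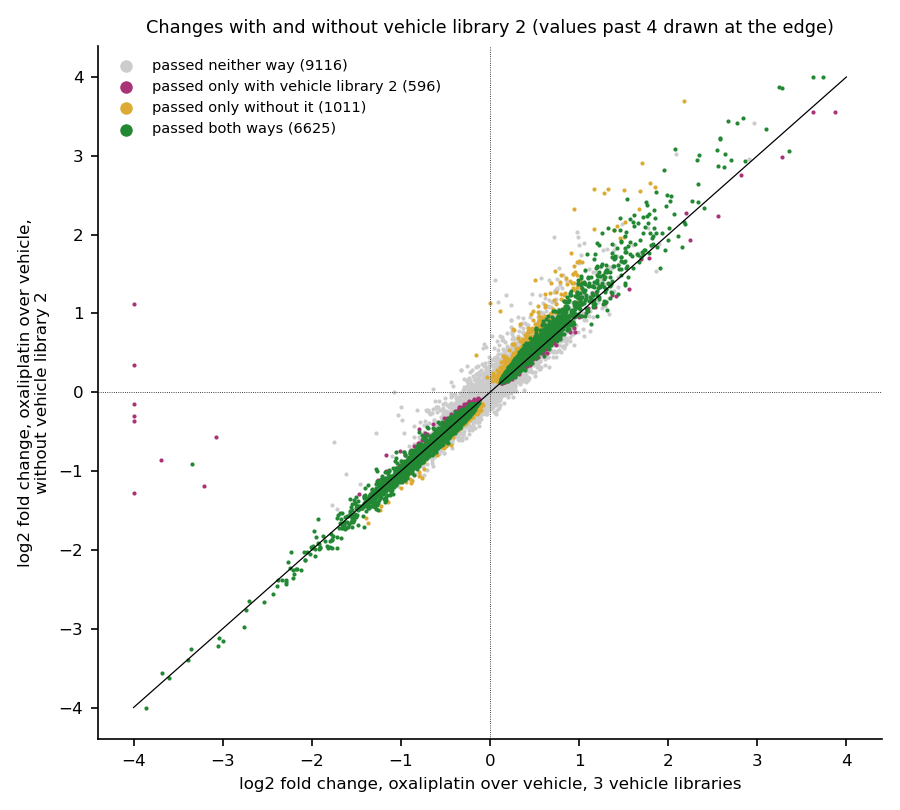
Each point is 1 of the 17348 tested genes, placed by its log2 fold change (oxaliplatin over vehicle) with all 3 vehicle libraries on the x axis and without vehicle library 2 on the y axis, with the diagonal as a line. The 6625 genes that passed both ways lie close to the diagonal, whereas a few genes at the left edge are strongly lower only when vehicle library 2 is included.

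Of 53 gene lists, chosen with earlier results of these data known, the one headed nuclear-retained long non-coding RNAs had the lowest median change. Of the 9 tested members of that list 7 fell, 0 rose, and the median change was -1.33 (-1.36), where the median of all tested genes was 0.00 (0.03). Meg3, an imprinted non-coding RNA, stood at 533, 513 and 730.3 CPM in vehicle libraries 1 to 3 and at 141, 124 and 129 CPM in the oxaliplatin libraries. The groups were far apart, and among the named genes that fell Meg3 had the largest decrease (log2 change -2.17, SE 0.14, adjusted p = 2.37e-06, and -2.25 without vehicle library 2). Snhg11, a snoRNA host transcript, gave the smallest p among the named genes, with 446, 425 and 452 CPM in vehicle and 123, 112 and 115 CPM in oxaliplatin (log2 change -1.91, SE 0.06, adjusted p = 4.79e-09, and -1.92 without vehicle library 2). Malat1, among the most abundant nuclear RNAs of mammalian cells, read 7383, 6916 and 8205 CPM in vehicle and 2971, 2995 and 3009 CPM in oxaliplatin (log2 change -1.33, SE 0.09, adjusted p = 3.37e-06, and -1.36 without vehicle library 2). Its oxaliplatin libraries were almost identical and all lay below the lowest vehicle library. The other members that fell were Mirg with -1.99 (-1.98), Miat with -1.65 (-1.69), Rian with -0.77 (-0.76) and Neat1, the scaffold of nuclear paraspeckles, with -0.61 (-0.60). Meg3, Rian and Mirg lie one after another on the plus strand of chromosome 12 (GRCm38, GENCODE M21), Meg3 at 109541001 to 109571726, Rian at 109603940 to 109661716 and Mirg at 109729764 to 109749460, in the maternally expressed part of an imprinted cluster. Snhg1 and Gas5 did not pass both ways. With library totals 6 of the 7 decreases also passed, and 2 members passed upward. After removal of each library's trend with exon length and GC content 5 passed downward and 1 upward, with a median of -1.14 (-1.17). The vehicle libraries, with their higher share of reads outside annotated features, were the ones with the higher levels of these RNAs, and what that share contributes was not tested.

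Messenger RNAs among the 10 largest decreases included several of neuronal genes. Zfhx2, a homeobox transcription factor tied to pain sensitivity, fell from 33.4, 27.5 and 35.6 CPM in vehicle to 8.26, 5.95 and 7.46 CPM in oxaliplatin (log2 change -2.16, SE 0.12, adjusted p = 1.37e-06, and -2.24 without vehicle library 2). Pclo, a giant scaffold of the presynaptic active zone, read 457, 363 and 392 CPM in vehicle and 146, 75.6 and 101 CPM in oxaliplatin (log2 change -1.91, SE 0.20, adjusted p = 2.99e-05, and -1.96 without vehicle library 2). In both genes every oxaliplatin library was under the lowest vehicle library by a wide margin, and oxaliplatin library 1 was the highest of its group. Clip3, which encodes a microtubule-linked adaptor, fell by 2.07 on the log2 scale (-2.13), Nr4a3, an activity-induced nuclear receptor, by 2.07 (-2.12), and Lmtk3, a membrane kinase, by 2.02 (-2.05). Scrt2, a neuronal transcriptional repressor, changed by -1.96 (-1.99), Wasf1, which drives branched actin assembly, by -1.93 (-1.91) and the diacylglycerol kinase gene Dgkk by -1.83 (-1.95). The genes with the smallest p, beyond Snhg11, Zfhx2 and Wasf1, all fell too. They were Luc7l2 with -1.11 (-1.11), Srrm1 with -1.30 (-1.26), Rnpc3 with -1.20 (-1.17) and Sfpq with -1.03 (-1.04), which encode splicing-associated proteins, Leng8 with -0.96 (-0.93), the actin nucleator gene Fmn2 with -1.23 (-1.18) and the transcription factor gene Rfx7 with -1.41 (-1.41).

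Of 36 tested genes in the list for chromatin methylation and remodelling 29 passed downward and 0 upward, with a median of -0.40 (-0.45). With library totals 13 of the decreases remained past the threshold. Ep300, a histone acetyltransferase, read 68.1, 54.6 and 59.8 CPM in vehicle and 31.8, 25.8 and 28.8 CPM in oxaliplatin (log2 change -1.08, SE 0.09, adjusted p = 7.62e-06, and -1.13 without vehicle library 2). Arid1a of the SWI/SNF remodelling complex changed by -1.13 (-1.20) and the histone methyltransferase gene Kmt2b by -0.97 (-0.99). After removal of each library's trend with exon length and GC content the list median was -0.13 (-0.13), with 17 genes passing downward and 1 upward.

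Voltage-gated ion channels of sensory neurons were lower in the oxaliplatin ganglia. Among sodium channel genes 10 of 14 fell and 1 rose, with a median of -0.48 (-0.52). Scn9a, which encodes Nav1.7 and sets the threshold of nociceptors, stood at 1148, 1005 and 1014 CPM in vehicle and 799, 634 and 659.6 CPM in oxaliplatin (log2 change -0.60, SE 0.10, adjusted p = 0.000616, and -0.61 without vehicle library 2). Scn10a, which encodes Nav1.8 and carries most of the nociceptor action potential, stood at 1337, 1217 and 1318 CPM and 1015, 807 and 851 CPM (log2 change -0.53, SE 0.10, adjusted p = 0.00162, and -0.56 without vehicle library 2). For both channels all oxaliplatin libraries were under all vehicle libraries, with oxaliplatin library 1 nearest to them. Scn11a (Nav1.9) changed by -0.38 (-0.39), Scn8a (Nav1.6, the channel of the nodes of Ranvier) by -0.72 (-0.83), Scn1a by -0.50 (-0.52) and Scn2a, listed as Scn2a1, by -0.58 (-0.61). Only the auxiliary subunit gene Scn2b rose, by 0.38 (0.34). Relative to library totals the list median was -0.19 (-0.37), and 1 of the 10 decreases remained past the threshold. After removal of exon length and GC trends the median was -0.20 (-0.21), with 9 genes passing downward and 1 upward.

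Potassium channel genes fell in 25 of 44 cases and rose in 1, Kcnip2 (0.31 and 0.35 without vehicle library 2), with a median of -0.30 (-0.34). With library totals the median was 0.00 (-0.19), and 7 decreases remained. Kcnq3 encodes a subunit of the channel of the M current, which holds neurons back from repetitive firing. Kcnq3 stood at 97.2, 66.8 and 85.04 CPM in vehicle and 44.2, 29.7 and 33.4 CPM in oxaliplatin (log2 change -1.22, SE 0.16, adjusted p = 0.000118, and -1.33 without vehicle library 2). Its groups were separate, with oxaliplatin library 1 nearest to the vehicle libraries. Kcnd1, an A-type channel gene, changed by -0.82 (-0.84), Kcnh7 by -0.97 (-1.04) and the calcium-activated channel gene Kcnma1 by -0.83 (-0.88). Calcium channels and the pacemaker HCN channels showed 16 decreases and 1 increase among 19 genes, with a median of -0.57 (-0.59), and 7 of the decreases remained with library totals. After removal of exon length and GC trends this median was -0.34 (-0.31), with 12 genes passing downward and 1 upward. Cacna1a, the P/Q-type channel of synaptic terminals, read 131, 117 and 136 CPM in vehicle and 65.3, 46.1 and 54.02 CPM in oxaliplatin (log2 change -1.21, SE 0.12, adjusted p = 2.24e-05, and -1.26 without vehicle library 2). Cacna1b, the N-type channel, changed by -0.91 (-0.97), the regulatory subunit gene Cacnb4 by -0.57 (-0.60) and Cacna2d1, whose product binds gabapentin, by -0.60 (-0.59). The T-type channel gene Cacna1g was the member that rose, by 0.58 (0.58).

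Transducer channels detect cold, heat, touch, acid and ATP. Among 26 TRP, Piezo, ASIC and P2X genes 8 fell and 2 rose, where 21.7% of all tested genes fell and 16.5% rose. The median of -0.04 (-0.05) turned to 0.26 (0.10) with library totals. Trpm8, the cold and menthol receptor, was at 61.2, 64.3 and 54.6 CPM in vehicle and 39.5, 29.8 and 30.9 CPM in oxaliplatin (log2 change -0.84, SE 0.11, adjusted p = 0.000127, and -0.78 without vehicle library 2). No oxaliplatin library reached the lowest vehicle library, and the decrease was -0.53 and still past the threshold with library totals. Trpa1, the irritant receptor implicated in oxaliplatin-evoked cold pain, was at 93.8, 84.4 and 83.97 CPM and 101, 86.3 and 86.5 CPM, with overlapping groups (log2 change 0.06, 95% interval -0.09 to 0.21, adjusted p = 0.504). The heat and capsaicin receptor gene Trpv1 did not pass either, at 139, 132 and 134 CPM and 137, 123 and 125 CPM (log2 change -0.07, 95% interval -0.22 to 0.09, adjusted p = 0.463). With library totals Trpa1 passed upward, at 0.36, and Trpv1 did not pass. A p that misses the threshold does not show that these levels were equal. The touch channel gene Piezo2 changed by -0.62 (-0.67), the acid sensor Asic3 by -0.56 (-0.54), Trpm3 by -0.40 (-0.45) and Trpm7 by -0.35 (-0.34). Piezo1 and Trpc6, which rose by 0.24 (0.31) and 0.19 (0.26), are expressed widely outside neurons.

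**Figure D2:**
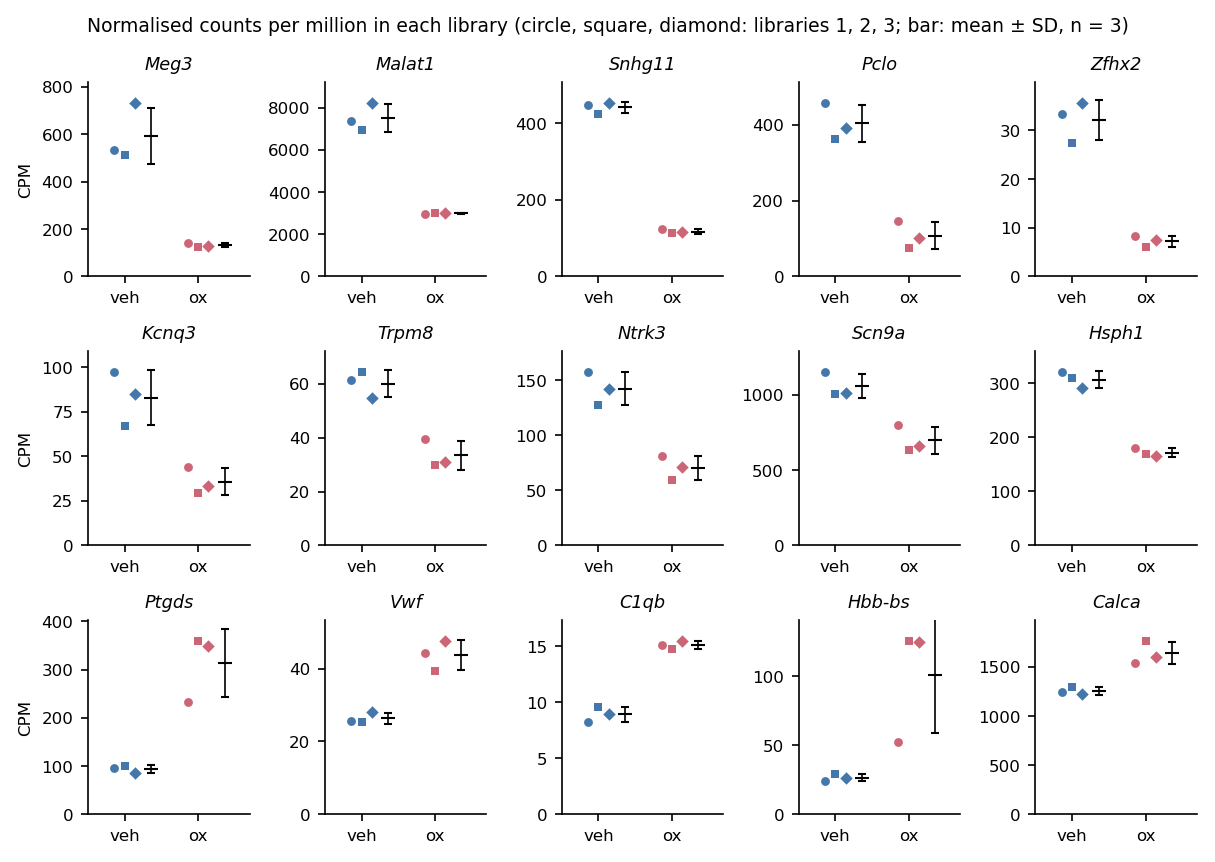
TMM-scaled CPM (y axes, linear and starting at 0) of 15 genes in the 3 vehicle (veh) and 3 oxaliplatin (ox) libraries, with the mean and SD of each group beside the points. In each panel the oxaliplatin libraries lie on one side of the vehicle libraries, below them in the 10 panels from Meg3 to Hsph1 and above them in Ptgds, Vwf, C1qb, Hbb-bs and Calca.

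Markers of neuron classes gave the following counts, beside 21.7% of all tested genes that fell and 16.5% that rose. Of 18 genes of large-diameter neurons, which serve touch and position sense, 11 fell and 0 rose, with a median of -0.45 (-0.50), and 7 of these passed with library totals. Ntrk3, the neurotrophin-3 receptor of proprioceptors, was at 157, 128 and 142 CPM in vehicle and 81.3, 59.7 and 70.8 CPM in oxaliplatin (log2 change -1.01, SE 0.11, adjusted p = 3.04e-05, and -1.07 without vehicle library 2), and no libraries overlapped. Vsnl1, a neuronal calcium sensor, changed by -1.56 (-1.55) and the transcription factor gene Etv1 by -0.87 (-0.93), whereas Pvalb, the calcium buffer that marks many proprioceptors, did not pass (0.10, adjusted p = 0.196) except upward with library totals. Of 12 peptidergic nociceptor genes 2 rose and 4 fell (Kit, Prdm12, Kcnv1 and Prokr2). Calca, which encodes the vasodilator neuropeptide CGRP, was one of those that rose. Its vehicle libraries held 1248, 1294 and 1222 CPM and its oxaliplatin libraries 1543, 1759 and 1604 CPM, all above the vehicle range (log2 change 0.38, SE 0.08, adjusted p = 0.00294, and 0.42 without vehicle library 2). Its paralog Calcb rose by 0.27 (0.38). Tac1, the substance P precursor gene, did not pass (0.09, adjusted p = 0.352). Prdm12, a nociceptor transcription factor, changed by -0.62 (-0.64), Kit by -0.63 (-0.62) and Kcnv1 by -0.34 (-0.32). Of 21 non-peptidergic and itch neuron genes 7 fell, among them Mrgprb5 with -1.20 (-1.17), Gfra2 with -0.61 (-0.67), Ret with -0.47 (-0.51) and Plxnc1 with -0.33 (-0.35), and 2 rose, the itch peptide gene Nppb with 0.45 (0.62) and the histamine receptor gene Hrh1 with 0.36 (0.37). Of 10 genes of C-fiber touch and cold neurons 5 fell (Cdh8 among them, at 0.01 with library totals), and Th rose by 0.26 (0.30). The list median of peptidergic neurons was -0.07 and became 0.23 (0.09) with library totals, and that of non-peptidergic neurons went from -0.12 to 0.18 (0.04). For C-fiber touch and cold neurons the median of -0.20 became 0.10 with all libraries and -0.04 without vehicle library 2. Of 18 pan-neuronal genes 6 fell, including Map2, Syt1, Elavl4 and Rbfox3 (-0.76 to -0.42), and the growth-cone gene Gap43 rose by 0.28 (0.35). That list's median of -0.19 (-0.13) was 0.12 (0.02) with library totals. In whole ganglia a smaller share of cells of a type and less RNA per cell cannot be told apart.

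Receptors that damp pain signalling were tested as a list of 17 opioid, cannabinoid, serotonin, adrenergic and other receptor genes. Of these 6 fell and 1 rose, where 21.7% of all tested genes fell and 16.5% rose. The median was -0.13 (-0.15), and 0.16 (-0.005) with library totals. The μ-opioid receptor gene Oprm1 changed by -0.65 (-0.73), the cannabinoid receptor gene Cnr1 by -0.54 (-0.58), the serotonin receptor genes Htr1b and Htr1d, targets of triptans, by -0.58 (-0.56) and -0.54 (-0.55), and Npy1r by -0.41 (-0.36). Adra2c rose by 0.28 (0.29).

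Genes of the axon were tested in 3 lists, where 21.7% of all tested genes fell and 16.5% rose. Of 20 genes of the axon degeneration pathway 11 fell and 0 rose, with a median of -0.22 (-0.21). With library totals the median was 0.09 (-0.06), and 3 decreases remained. Mycbp2, the ubiquitin ligase that limits axon survival factors, read 695, 583 and 641 CPM in vehicle and 411, 293 and 331 CPM in oxaliplatin (log2 change -0.89, SE 0.12, adjusted p = 0.000162, and -0.94 without vehicle library 2). Map3k13 (LZK), a stress kinase upstream of JNK, changed by -0.93 (-1.0), Map2k4 by -0.39 (-0.40), Wnk2 by -1.09 (-1.16) and Sarm1, the NADase that executes axon self-destruction, by -0.40 (-0.47). Of 28 transport motor genes 9 fell and 4 rose, with a median of -0.15 (-0.17) and of 0.14 (-0.02) with library totals. The dynein heavy chain gene Dync1h1 changed by -0.85 (-0.90), and the kinesin genes Kif1a, Kif21b and Kif5a by -0.64 (-0.72), -0.60 (-0.64) and -0.41 (-0.47). The members that rose were Kif1c with 0.40 (0.40) and the short dynein and dynactin subunit genes Dynlrb1, Dctn3 and Dynll1 with 0.26 (0.28), 0.25 (0.26) and 0.26 (0.37). Of 27 neurofilament, tubulin and microtubule-associated protein genes 8 fell and 4 rose, with a median of 0.00 (0.01) and of 0.30 (0.16) with library totals. Map1b, among the most highly counted genes of the ganglion, was at 11544, 9236 and 11059 CPM in vehicle and 6631, 4307 and 4942 CPM in oxaliplatin (log2 change -1.004, SE 0.16, adjusted p = 0.000535, and -1.08 without vehicle library 2). Its oxaliplatin values were spread widely, and all of them were under the vehicle values. Tubb4a, a neuronal tubulin, changed by -1.45 (-1.46), Map1a by -1.22 (-1.28), Ina by -0.69 (-0.72) and the neurofilament gene Nefm by -0.58 (-0.52). Tuba1c, Tubb6, Tuba1a and Stmn3 were the members that rose, by 0.21 to 0.42. After removal of exon length and GC trends 0 members of this list passed upward and 9 downward, with a median of -0.09 (-0.07).

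Glial transcripts diverged by type. Of 20 genes of myelinating Schwann cells 9 rose and 0 fell, with a median of 0.24 (0.28). Prx, which encodes the myelin scaffold periaxin, rose from 260.1, 308 and 336 CPM in vehicle to 393, 409 and 417 CPM in oxaliplatin (log2 change 0.43, SE 0.10, adjusted p = 0.00416, and 0.47 without vehicle library 2), and the lowest oxaliplatin library exceeded the highest vehicle library. Pllp rose by 0.48 (0.52), Mal by 0.38 (0.45), Cnp by 0.32 (0.36) and Mbp by 0.41 (0.42). Of 9 tested genes of non-myelinating and repair Schwann cells 7 fell and 0 rose, with a median of -0.38 (-0.42). With library totals the median was -0.09 (-0.27) and no decrease remained. Scn7a, which non-myelinating Schwann cells share with neurons, changed by -0.63 (-0.61), the adhesion molecule L1cam by -0.67 (-0.69), Cdh2 by -0.45 (-0.48) and the repair transcription factor gene Jun by -0.34 (-0.34). Of 16 satellite glia genes 4 fell and 3 rose, near the 21.7% and 16.5% of all tested genes. Their median was -0.01 (-0.02), and 0.29 (0.14) with library totals. Kcnj10, the potassium-buffering channel Kir4.1 of satellite glia, was at 63.9, 54.6 and 61.9 CPM in vehicle and 32.5, 28.7 and 31.9 CPM in oxaliplatin (log2 change -0.96, SE 0.11, adjusted p = 5.79e-05, and -1.001 without vehicle library 2). Cadm2 and Ptprz1 changed by -1.14 (-1.14) and -0.89 (-0.89), and Cdh19 by -0.39 (-0.33). Apoe and Dbi were among those that rose, by 0.40 (0.38) and 0.38 (0.42).

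Vessel, connective tissue and border cell transcripts were higher. Of 19 endothelial genes 10 rose and 0 fell, with a median of 0.54 (0.43). Vwf, the clotting factor carrier stored by endothelium, was at 25.6, 25.2 and 28.2 CPM in vehicle and 44.3, 39.4 and 47.5 CPM in oxaliplatin (log2 change 0.73, SE 0.10, adjusted p = 0.000133, and 0.72 without vehicle library 2). Plvap, the diaphragm protein of fenestrated vessels, rose by 1.15 (1.16), Pecam1 by 0.83 (0.73) and Eng by 0.70 (0.70). The summed level of the endothelial list was 225 to 262 CPM in vehicle and 302 to 331 CPM in oxaliplatin. Of 14 pericyte and smooth muscle genes 7 rose and 0 fell, with a median of 0.37 (0.46), among them Vtn with 1.09 (1.05), Kcnj8 with 1.15 (1.35), Myl9 with 0.74 (0.79) and Acta2 with 0.71 (0.71). Of 23 fibroblast and matrix genes 17 rose and 0 fell, with a median of 0.32 (0.40). Fn1, which encodes fibronectin, was at 116, 129 and 108 CPM in vehicle and 178, 218 and 218 CPM in oxaliplatin (log2 change 0.80, SE 0.11, adjusted p = 0.000152, and 0.89 without vehicle library 2). Col6a1, Ly6a and Cd34 rose by 0.72 (0.78), 0.76 (0.78) and 0.27 (0.30). For each of the endothelial, pericyte and fibroblast genes just named, the oxaliplatin libraries all lay above the vehicle libraries.

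The meningeal and nerve-sheath border list held some of the largest increases: 11 of 14 genes rose and 0 fell, with a median of 0.88 (0.96). Ptgds, the prostaglandin D synthase that marks arachnoid cells, was at 97.2, 99.9 and 84.9 CPM in vehicle and 232, 359 and 349.9 CPM in oxaliplatin (log2 change 1.74, SE 0.26, adjusted p = 0.000333, and 1.80 without vehicle library 2). Oxaliplatin library 1 was the lowest of its group and still well above the vehicle libraries. The organic anion transporter gene Slc22a6 rose by 2.11 (1.99), Slc13a4 by 1.01 (1.11) and Lypd2 by 1.01 (1.15). Ranbp3l and Fgfbp1, outside that list but among the 10 largest increases, rose by 1.80 (1.87) and 1.87 (1.84). The summed level of the border list was 206 to 261 CPM in vehicle and 428 to 583 CPM in oxaliplatin. Ganglia are dissected with parts of their coverings, and the part of the amount of attached tissue in these values was not tested.

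Transcripts of erythrocytes, neutrophils and myeloid precursors were higher as well. Of 12 tested erythrocyte genes 6 rose and 0 fell, and the median change was 1.08 (1.30). Hbb-bs, the adult beta globin, was at 23.96, 29.3 and 26.6 CPM in vehicle and 52.8, 125 and 125 CPM in oxaliplatin (log2 change 1.93, SE 0.33, adjusted p = 0.000806, and 2.02 without vehicle library 2). Oxaliplatin library 1 was far below the others of its group, and it still exceeded every vehicle library. Hba-a1, Hba-a2, Hbb-bt and Alas2 rose as well, by 1.82 (Hba-a2) to 1.84 (Hba-a1). Of 20 neutrophil and myeloid precursor genes 16 rose and 0 fell, with a median of 1.22 (1.55). In 8 of the 20 all oxaliplatin libraries lay above all vehicle libraries, against 23.1% of all tested genes. Ltf, which encodes lactoferrin, was at 9.37, 13.6 and 7.35 CPM in vehicle and 15.1, 30.1 and 27.1 CPM in oxaliplatin (log2 change 1.30, SE 0.26, adjusted p = 0.0022, and 1.55 without vehicle library 2). Vehicle library 2 had the highest vehicle value and came near the lowest oxaliplatin value. Lcn2, Csf3r and Itgb2l rose by 1.10 (1.34), 0.82 (1.002) and 1.86 (2.21). The eosinophil granule gene Prg2 had the largest increase of any named gene that rose, from 0.562, 1.38 and 0.423 CPM in vehicle to 1.89, 6.47 and 3.81 CPM in oxaliplatin (log2 change 2.54, SE 0.62, adjusted p = 0.00665, and 3.07 without vehicle library 2).

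Of 25 macrophage genes 19 rose and 0 fell, with a median of 0.56 (0.75), where 16.5% of all tested genes rose and 21.7% fell. C1qb, a complement subunit made by resident macrophages, was at 8.29, 9.58 and 8.94 CPM in vehicle and 15.1, 14.7 and 15.4 CPM in oxaliplatin (log2 change 0.76, SE 0.08, adjusted p = 3.59e-05, and 0.83 without vehicle library 2). Cx3cr1, the fractalkine receptor of resident macrophages, rose by 0.87 (1.10), Tyrobp by 0.87 (0.97) and Adgre1 (F4/80, listed as Emr1) by 0.72 (0.93). Of 11 genes of MHC class II presentation 7 rose, among them H2-DMb1 with 0.63 (0.74), Ctss with 0.56 (0.69), Ifi30 with 0.55 (0.65) and H2-DMa with 0.44 (0.52). Of 20 complement genes 11 rose and 0 fell (median 0.36 and 0.49 without vehicle library 2), including C1qa with 0.63 (0.76), C3 with 0.59 (0.76) and C1s with 0.41 (0.47). For these myeloid lists the medians were larger without vehicle library 2 than with it, and vehicle library 2 had the highest vehicle level of Cx3cr1, C1qb and C3. Of 30 cytokine, chemokine and receptor genes 8 rose and 2 fell, with Ccr1 at 1.26 (1.39), Il10rb at 0.28 (0.30), the venular chemokine scavenger Ackr1 (listed as Darc) at -0.96 (-1.12) and the shared receptor gene Il6st at -0.39 (-0.45). Of 20 Toll-like receptor and inflammasome genes 4 rose (Cd14, Tlr13, Tlr2 and Casp1), near the 16.5% of all tested genes, and Tlr3 and Tlr5 fell. Among 28 interferon-stimulated genes Ifitm3 and Ifi27 rose and Stat2 fell, smaller shares than among all tested genes. Of 10 mast cell genes 4 rose, Cma1, Mcpt4, Tpsb2 and Cpa3, by 0.58 to 1.08, and 1 fell, Kit, which neurons also express. The summed level of that list was lower in oxaliplatin, at 75.5 to 93.3 CPM against 100.3 to 121 CPM in vehicle. Lymphocyte lists passed in few genes: Cd79b rose and Ebf1 fell (Ebf1 changed by 0.06 with library totals) among 10 B and plasma cell genes, and Nkg7 and Lck rose among 8 T and NK cell genes. Of 6 adipocyte genes Fabp4 rose, of 5 tested genes of spinal cord and central glia Slc17a7 and Aqp4 fell (Aqp4 changed by 0.02 with library totals), and of 15 skeletal muscle genes none passed both ways, while 3 passed upward without vehicle library 2. The summed skeletal muscle level was 95.4 to 149 CPM in vehicle and 92.1 to 195 CPM in oxaliplatin.

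**Figure D3:**
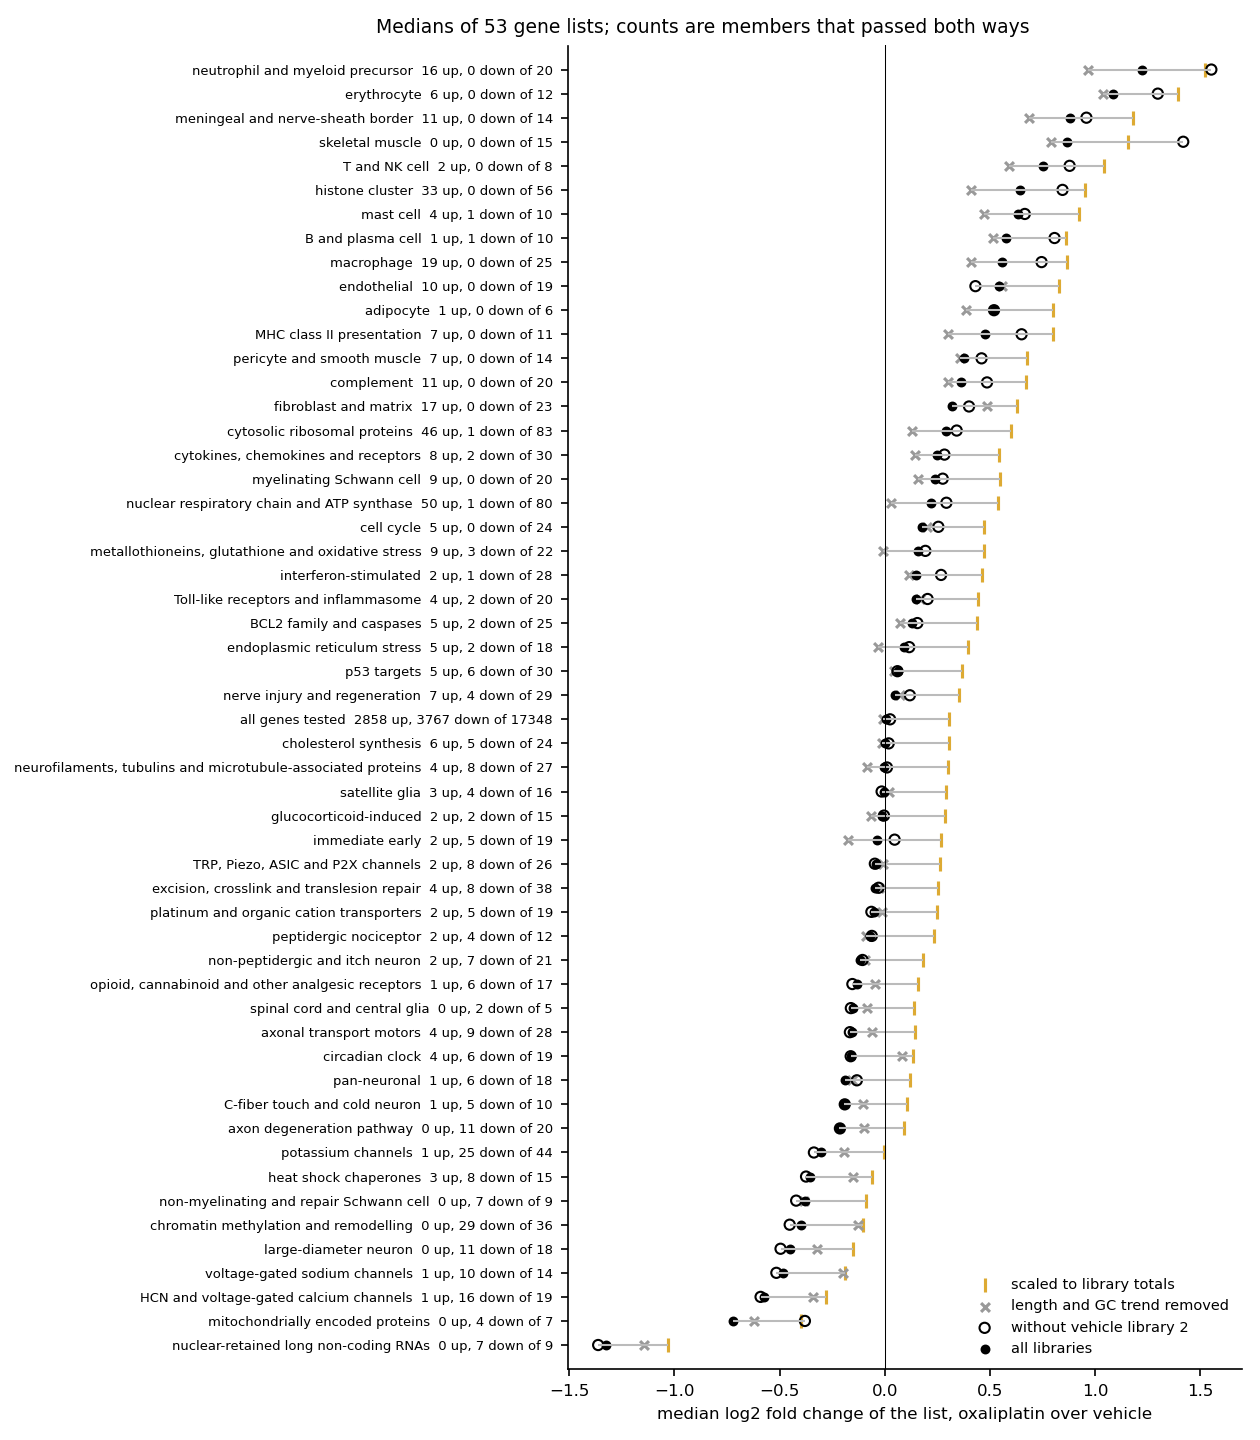
Median log2 fold change (x axis, oxaliplatin over vehicle) of each gene list and of all tested genes, with all libraries, without vehicle library 2, with scaling to library totals and after removal of exon length and GC trends. Counts beside each name give the members that passed both ways, from 16 of 20 neutrophil genes upward at the top to 7 of 9 nuclear non-coding RNAs downward at the bottom, and library totals move the lists to the right.

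Of 29 tested nerve injury genes 7 rose and 4 fell, not far from the 16.5% and 21.7% of all tested genes, with a median of 0.05 (0.12). After removal of exon length and GC trends the median was 0.07 (0.08), with 2 genes passing upward and 4 downward. Atf3, the transcription factor induced in axotomised neurons, was at 6.26, 5.32 and 5.43 CPM in vehicle and 7.76, 10.04 and 6.87 CPM in oxaliplatin (log2 change 0.53, SE 0.14, adjusted p = 0.00961, and 0.52 without vehicle library 2). All oxaliplatin libraries exceeded the vehicle libraries, by a small amount on a low level. Sprr1a, another axotomy-induced gene, rose by 1.66 (1.75), with a 95% interval of 0.55 to 2.78 at levels under 1 CPM, Anxa1 by 0.81 (0.88) and Socs3 by 0.44 (0.55). The neuropeptide gene Gal, which axotomy strongly raises, was at 6.64, 8.33 and 7.22 CPM in vehicle and 7.15, 7.84 and 6.17 CPM in oxaliplatin, with overlapping groups (log2 change -0.05, adjusted p = 0.815). Npy passed with vehicle library 2 (adjusted p = 0.0334) and not without it (adjusted p = 0.0626), at 0.516, 0.284 and 0.207 CPM in oxaliplatin against vehicle libraries that were all under the floor of 3 reads. Csf1, a macrophage growth factor gene of injured neurons, passed only without it (0.24, adjusted p = 0.0289). Klf7 and Sema6a fell by 0.73 and 0.92 on the log2 scale (-0.82 and -0.94).

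Platinum adducts are repaired by nucleotide excision and crosslink repair, and DNA damage is known to activate p53. Of 30 p53 target genes 5 rose and 6 fell, with a median of 0.06 (0.06), shares close to the 16.5% and 21.7% of all tested genes that rose and fell. Cdkn1a, which encodes the cell cycle inhibitor p21, was at 24.4, 30.5 and 24.5 CPM in vehicle and 19.1, 18.7 and 18.2 CPM in oxaliplatin (log2 change -0.49, SE 0.08, adjusted p = 0.000573, and -0.37 without vehicle library 2). The oxaliplatin libraries were nearly equal and below every vehicle library. Mdm2, the p53 ubiquitin ligase gene, changed by -0.22 (-0.22), and with library totals by 0.08. Zmat3 changed by -1.02 (-1.10), while Plk2, Perp, Ephx1, Aen and Ei24 rose by 0.15 to 0.35. Of 38 repair genes 8 fell and 4 rose, and neither share was above that of all tested genes (21.7% and 16.5%). The median was -0.04 (-0.03), and 0.25 (0.12) with library totals. The damage kinase genes Atr and Atm changed by -0.51 (-0.47) and -0.48 (-0.50), and the translesion polymerase gene Rev3l by -0.66 (-0.69). Xpa, Ercc1, Fanci and Fancc rose, with Xpa, the excision repair verifier, at 0.44 (0.49) and Ercc1, a subunit of its nuclease, at 0.38 (0.37). Of 25 BCL2 family and caspase genes 5 rose and 2 fell: Bmf, Casp1, Bad and Bid were among those that rose, by 0.25 to 0.67, Xiap, a caspase inhibitor, changed by -0.57 (-0.55) and Bcl2 by -0.22 (-0.24), which with library totals was 0.08.

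Of 19 tested platinum and organic cation transporter genes 5 fell and 2 rose, near the 21.7% and 16.5% of all tested genes. The median was -0.05 (-0.06), and 0.25 (0.09) with library totals. Slc22a2 encodes OCT2, a carrier linked to oxaliplatin uptake by sensory neurons. It was at 0.487, 0.689 and 0.650 CPM in vehicle and 1.45, 1.09 and 0.700 CPM in oxaliplatin (log2 change 0.85, SE 0.30, adjusted p = 0.0417, and 0.93 without vehicle library 2). Its highest vehicle value and lowest oxaliplatin value nearly met. Slc22a2 and Slc47a1, which rose by 0.92 (0.97), also belong to the border cell list described above. Slc31a1, the copper transporter CTR1 gene, did not pass (-0.05, 95% interval -0.17 to 0.06, adjusted p = 0.454). The copper ATPase gene Atp7a changed by -0.44 (-0.45), and the volume-regulated anion channel genes Lrrc8a, Lrrc8c and Lrrc8d by -0.41 (-0.45), -0.95 (-1.02) and -0.31 (-0.30). Among 22 metallothionein, glutathione and oxidative stress genes 9 rose, with Gsta4 at 0.60 (0.63), Gpx4 at 0.38 (0.50) and Nqo1 at 0.32 (0.33), and Gclm, Gclc and Nfe2l2 fell. That list's median of 0.16 (0.19) was -0.01 after removal of exon length and GC trends.

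The circadian clock list held genes that rose and genes that fell, as did the tested genes as a whole. CLOCK and NPAS2 pair with ARNTL to activate genes through the E-box motif, PER and CRY proteins repress them, and the output factors DBP, TEF and HLF act on the D-box motif. Of 19 genes 4 rose, which were Dbp, Tef, Hlf and Per3, and 6 fell, Per1, Per2, Npas2, Clock, Bhlhe41 and Rora. Of all tested genes 16.5% rose and 21.7% fell. The list median was -0.16 (-0.16), and it was 0.13 (-0.01) with library totals and 0.08 (0.07) after trend removal. To show the regulatory letters behind these names, the 250 bases upstream of a start site are printed for Per3, which rose and holds D-boxes, Tef, which rose and holds an E-box, and Per1, which fell and holds an E-box at the first of its 2 start sites and none at the second (RefSeq, GRCm38.p6, sense strand 5′ to 3′, motif in capitals). The windows are Per3 at chr4:151044666-151044915 on the minus strand, Tef at chr15:81802423-81802672 on the plus strand and Per1 at chr11:69098699-69098948 on the plus strand.
Per3: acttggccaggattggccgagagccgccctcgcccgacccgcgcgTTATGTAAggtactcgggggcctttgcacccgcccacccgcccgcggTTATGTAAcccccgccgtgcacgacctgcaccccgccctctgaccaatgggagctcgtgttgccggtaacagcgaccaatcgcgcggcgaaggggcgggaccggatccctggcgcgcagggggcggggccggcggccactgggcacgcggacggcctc
Tef: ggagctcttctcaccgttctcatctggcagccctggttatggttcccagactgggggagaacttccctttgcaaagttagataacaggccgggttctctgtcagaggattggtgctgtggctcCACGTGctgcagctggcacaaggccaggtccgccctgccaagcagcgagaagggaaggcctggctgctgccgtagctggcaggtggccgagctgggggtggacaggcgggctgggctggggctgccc
Per1: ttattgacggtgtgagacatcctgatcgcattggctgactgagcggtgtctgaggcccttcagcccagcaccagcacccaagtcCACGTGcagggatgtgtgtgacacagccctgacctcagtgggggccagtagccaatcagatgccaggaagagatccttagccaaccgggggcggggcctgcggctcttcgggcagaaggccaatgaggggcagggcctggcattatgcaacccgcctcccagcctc
The E-box was searched as CACGTG and the D-box as TTANGTAA on both strands, and the motifs share no overlap here. Among 32851 promoter windows of this length 6.02% held the E-box and 2.06% the D-box. Those shares are per window, whereas 16 of the 19 clock genes had 21 windows, so the counts per gene are not set against them. An E-box was found in at least 1 window of 5 genes (Per1, Cry1, Tef, Bhlhe41 and Ciart) and the D-box in 1, Per3. Matches are a description of these letters only, and genes with an E-box moved both ways in these data.

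Dbp had the largest change of the clock list. Its vehicle libraries lay close together at 7.16, 7.33 and 7.35 CPM, and its oxaliplatin libraries were spread over 11.7, 20.1 and 28.7 CPM (log2 change 1.47, SE 0.26, adjusted p = 0.000864, and 1.49 without vehicle library 2). Per3 was at 14.9, 11.6 and 13.3 CPM in vehicle and 16.4, 20.6 and 27.2 CPM in oxaliplatin (log2 change 0.68, SE 0.15, adjusted p = 0.00423, and 0.62 without vehicle library 2). In both genes oxaliplatin library 1 was the lowest and library 3 the highest of the group, as also for Tef, which read 95.3, 86.9 and 99.8 CPM in vehicle and 119, 127 and 137 CPM in oxaliplatin with a change of 0.44 (0.41), and for Hlf, with 0.65 (0.71). Per1 was at 22.9, 15.4 and 18.2 CPM in vehicle and 8.33, 10.04 and 12.2 CPM in oxaliplatin (log2 change -0.90, SE 0.15, adjusted p = 0.000633, and -0.99 without vehicle library 2), and Per2 changed by -0.58 (-0.61). Npas2 changed by -0.82 (-0.77) and Clock by -0.38 (-0.42). Nr1d1 and Arntl passed with vehicle library 2 (0.78 and -0.44) and not without it (adjusted p = 0.0998 and 0.0963). The hour at which the tissue was taken is not given in the labels, so time of day and treatment cannot be told apart.

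**Figure D4:**
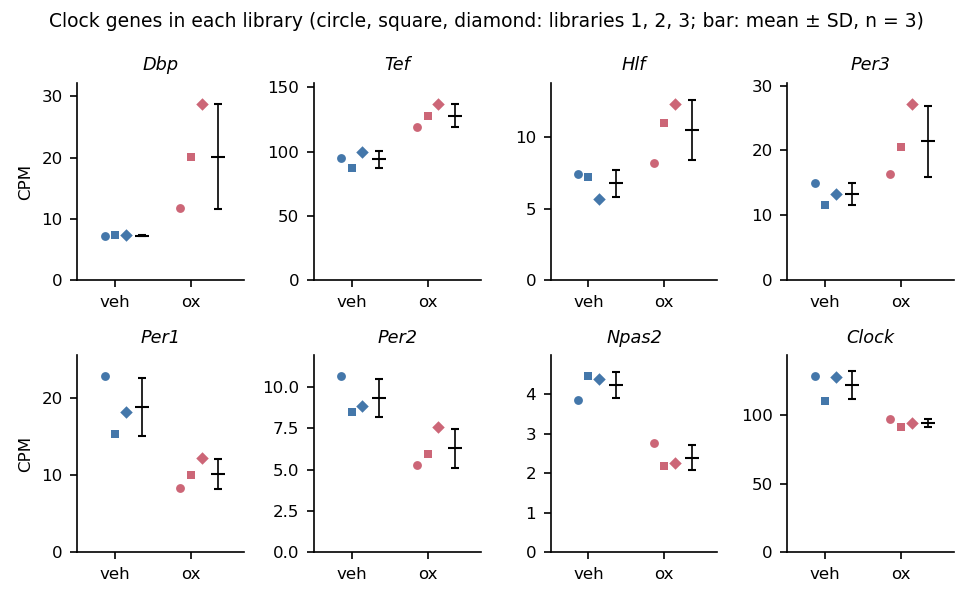
TMM-scaled CPM (y axes, linear and starting at 0) of 8 clock genes in the 3 vehicle (veh) and 3 oxaliplatin (ox) libraries, with mean and SD beside the points. The upper row (Dbp, Tef, Hlf, Per3) is higher and the lower row (Per1, Per2, Npas2, Clock) lower in oxaliplatin, and for Dbp the oxaliplatin libraries range from 11.7 to 28.7 CPM.

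Stress programmes were mixed. Of 15 heat shock chaperone genes 8 fell and 3 rose, with a median of -0.36 (-0.37), and 3 of the decreases remained with library totals. After removal of exon length and GC trends the median was -0.15 (-0.12), with 6 genes passing downward and 0 upward. Hsph1, which encodes the HSP110 disaggregase, was at 320.2, 309 and 290.5 CPM in vehicle and 180.1, 169.7 and 165 CPM in oxaliplatin (log2 change -0.84, SE 0.08, adjusted p = 2.24e-05, and -0.81 without vehicle library 2), and no library overlapped. The inducible HSP70 gene Hspa1b changed by -1.07 (-0.998), its near-identical copy Hspa1a, with which it can exchange reads, by -0.62 (-0.64), the cochaperone gene Bag3 by -0.96 (-0.95) and Dnaja1 by -0.51 (-0.45). Hspe1, Hspb1 and Hspb8 rose by 0.17 to 0.26. Of 18 endoplasmic reticulum stress genes 5 rose (Ddit3, Herpud1, Calr, Manf and Atf4) and 2 fell, Dnajb9 by 0.86 on the log2 scale (-0.80) and Hsp90b1 by 0.22 (-0.20), which with library totals was 0.08. The median of the endoplasmic reticulum list was 0.09 (0.12), and -0.03 after removal of exon length and GC trends, where 1 gene passed upward and 2 downward. Of 19 immediate early genes 5 fell and 2 rose (Atf3 and Ier5), with a median of -0.04 (0.05) that was 0.27 (0.19) with library totals. Nr4a3 was at 3.22, 1.88 and 1.33 CPM in vehicle and 0.442, 0.782 and 0.285 CPM in oxaliplatin (log2 change -2.07, SE 0.38, adjusted p = 0.00124, and -2.12 without vehicle library 2), with Nr4a2 at -0.72 (-0.69), Egr3 at -1.0 (-1.12) and Fosl2 and Jun also lower. Of 15 glucocorticoid-induced genes Zbtb16 and Per1 fell and Mt1 and Nfkbia rose, with a median of -0.02 (0.00) that was 0.29 (0.15) with library totals. Of 24 cholesterol synthesis genes 6 rose and 5 fell, where 16.5% and 21.7% of all tested genes did. Dhcr7, the last enzyme of the pathway, changed by -0.80 (-0.73), the regulator Srebf2 by -0.55 (-0.56), Stard4 by -0.49 (-0.46) and Mvk by 0.27 (0.31).

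Short genes of the ribosome and respiratory chain were higher. Of 83 tested cytosolic ribosomal protein genes 46 rose and 1 fell (Rpl24), with a median of 0.29 (0.34), and of 80 nuclear respiratory chain and ATP synthase genes 50 rose and 1 fell (Ndufab1), with a median of 0.22 (0.29). The ribosomal genes Rps28, Rps4x and Rpl14 rose by 0.45 to 0.51, and Cox5b, Cox6a1, Ndufv3 and Ndufa7 rose by 0.37 to 0.38. After removal of exon length and GC trends 22 ribosomal and 17 respiratory genes passed upward both ways, and the medians were 0.13 and 0.03. Of the 13 protein-coding genes of the mitochondrial genome 7 were tested, of which 4 fell and 0 rose, with a median of -0.72 that was -0.38 without vehicle library 2. Their summed level overlapped between the groups, at 6386 to 7876 CPM in vehicle and 6612 to 7133 CPM in oxaliplatin. mt-Nd5 was at 170.0, 281 and 254 CPM in vehicle and 109, 95.8 and 105 CPM in oxaliplatin (log2 change -1.18, SE 0.14, adjusted p = 8.12e-05, and -1.02 without vehicle library 2), with the highest value in vehicle library 2. mt-Nd2, mt-Nd4 and mt-Cytb changed by -0.90 (-0.75), -0.72 (-0.60) and -0.58 (-0.38), and mt-Co1 did not pass (0.14, adjusted p = 0.301). Of 56 tested histone cluster genes 33 rose and 0 fell, with a median of 0.64 (0.84), including Hist1h1c with 0.39 (0.44), Hist1h1e with 0.57 (0.62), Hist2h2bb with 0.65 (0.74) and Hist1h3e with 0.75 (0.94). Histone cluster genes have near-identical copies, so their counts are uncertain. Of 24 cell cycle genes 5 rose, Top2a, Ccna2, Aurkb, Bub1 and Ube2c, by 0.44 to 1.17, and 0 fell, where 16.5% of all tested genes rose.

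The share of genes that rose or fell varied with the length of their exons. Among tested genes with an annotated length, the shortest quintile (57 to 2011 bases) rose in 26.3% and fell in 4.46% of cases. The longest quintile (7183 to 123179 bases) rose in 4.98% and fell in 52.3%. Across 16380 genes Spearman's rho between exon length and the log2 change was -0.41 with all libraries and -0.44 without vehicle library 2, and that between GC content and the change was 0.27 and 0.25. These are descriptions across genes, which share their libraries. When each library's trend with length and GC content was removed, 1487 of the genes that rose (52.0% of these, 8.57% of all tested) and 2514 of those that fell (66.7%, 14.5%) still passed both ways, and 78 of the latter passed with the opposite sign. Among the sensory genes above, Trpm8 changed by -0.88 after that removal, Ntrk3 by -0.46, Kcnq3 by -0.84, Scn10a by -0.47 and Scn9a by -0.22. Several of the other genes given above changed sign with it, among them Atr, Clock, Trpm3, Trpm7, Dctn3 and Dynlrb1, which came to between -0.06 (Dctn3) and 0.09 (Trpm3). Among other lists whose median or counts moved with this removal, the median became -0.01 for metallothioneins, glutathione and oxidative stress (3 higher, 4 lower), -0.20 for potassium channels (20 lower, 3 higher), -0.10 for the axon degeneration pathway (8 lower, 2 higher), -0.06 for transport motors (9 lower, 3 higher), -0.05 for the analgesic receptors (6 lower, 0 higher), 0.16 for myelinating Schwann cells (6 higher, 1 lower), 0.30 for MHC class II presentation (3 higher, 0 lower) and 0.41 for histone cluster genes (19 higher, 0 lower). By gene type, long intergenic non-coding RNAs rose in 6.34% and fell in 20.1% of 284 cases and processed pseudogenes rose in 17.7% and fell in 4.79% of 835.

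**Figure D5:**
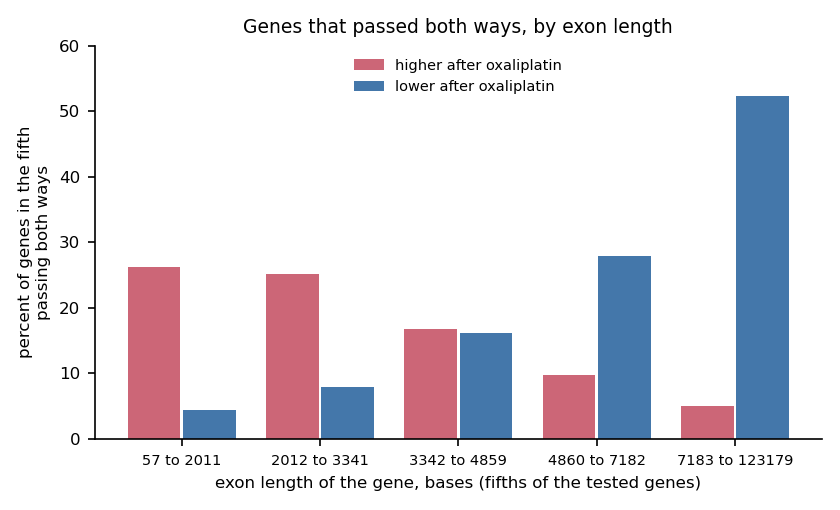
Percent of genes (y axis) that rose or fell both ways in each quintile of exon length (x axis, in bases). The share that rose drops from 26.3% in the shortest to 4.98% in the longest genes, and the share that fell grows from 4.46% to 52.3%.

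Which genes passed depended in part on vehicle library 2. With it 185 genes passed upward and 411 downward that did not pass without it. Without it 748 genes were gained upward and 263 downward, among the 17348 genes tested both ways. Lars2 showed the pattern at its most extreme, at 60.7, 37512 and 57.7 CPM in vehicle and 48.1, 39.8 and 48.1 CPM in oxaliplatin. Only vehicle library 2 stood apart, and the log2 change of -8.11 with it became -0.37 without it (adjusted p = 0.673). Vehicle library 2 was also far above all others in n-R5-8s1, mmu-mir-6236 and Gm26924, and it was the highest vehicle library, by a smaller margin, in Egr1 and Mfsd2b. Among the genes gained without it were Socs1 (1.24), Mmrn1 (0.80), Fos (0.47) and the muscle genes Myh4 (2.60) and Acta1 (2.17). In all 5 of these genes vehicle library 2 was again the highest of its group, and in Myh4 and Acta1 oxaliplatin library 3 was within the vehicle range.

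Oxaliplatin and cisplatin ganglia were compared with each other in the fit of all 9 libraries. The vehicle libraries are not a term of this contrast, but they entered its filter, its scaling and its shared estimate of the spread. At an adjusted p under 0.05, 2 of 17348 genes differed (0.0115%), Fam150b and Prss34, neither of which passed against vehicle. At an unadjusted p under 0.05 the count was 1111 (6.4%). With vehicle library 1 or vehicle library 3 left out, 0 genes differed at the adjusted threshold. None of the 6625 genes that rose or fell against vehicle passed between the drugs in edgeR as described above. Under alternatives the genes that passed in both comparisons numbered 18 with library totals, 8 with no count filter, 7 in DESeq2, 2 without oxaliplatin library 1 and 0 in limma-voom. Among those named, Dbp had the widest gap: its cisplatin libraries held 6.17, 8.15 and 7.34 CPM, around the vehicle values, against 11.7, 20.1 and 28.7 CPM in oxaliplatin (log2 change between the drugs 1.48, 95% interval 0.95 to 2.01, adjusted p = 0.198). For Per3 the difference between the drugs was 0.81 (adjusted p = 0.285), and for Tef 0.26 (adjusted p = 0.538). Other genes with the smallest p in this contrast among those that changed included Sh3bgrl, Hnrnph1, Arxes2, Cav2, B3gnt5, Xpa and Gt(ROSA)26Sor, with differences between -0.86 (Gt(ROSA)26Sor) and 0.35 (Xpa). A p that misses the threshold does not show that the drugs act alike.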

How the data were processed

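Libraries were made from total RNA with a stranded kit, per the labels' protocols. The authors deposited whole-number read counts per gene symbol, made with STAR, SAMtools and HTSeq on GRCm38 (mm10), per the submitters' processing notes; for their versions, the counting annotation and its strand setting nothing is stated, so overlapping and antisense genes are uncertain. Rows for unassigned reads were left out of library sizes and tests. Counts were filtered (filterByExpr), scaled by TMM and tested with edgeR 4.0.16 (glmQLFit, glmQLFTest, R 4.3.3) over all 9 libraries with 1 term per group, so the groups share 1 estimate of the spread, and again over 8 libraries. P-values were adjusted by the Benjamini-Hochberg method over all genes tested. The fit was also run on simulated counts with far fewer changed genes and no trend with length. That run cannot speak to the scaling of these data. CPM values are TMM-scaled and not divided by length, so they are not compared between genes. Intervals are 95%, and the detection floor covers counting error only.

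Exon length and type came from GENCODE M21 (GRCm38), and 91.8% of symbols were found there. In the lists 11 symbols were matched by synonym. Promoter windows came from RefSeq. The lists and members were chosen with earlier results of these data known. Genes named with values are a fixed set of 20 sensory and damage genes, the 10 largest changes each way and the 10 smallest p among genes passing both ways, the 5 moving most on each side with vehicle library 2, up to 4 of each list by smallest p, and the 10 smallest p between the drugs. Some genes that this rule takes are not reported here. Other members, named to complete small counts or to show a library or pathway, were chosen after their values were seen. Alternatives were other scaling (including DESeq2 1.42.0 size factors), filters, limma 3.58.1 voom, DESeq2, trend removal (mgcv 1.9.3), thresholds and left-out libraries. Each library is a separate pool of 4 animals. The shared replicate numbers do not mark a shared source in the labels.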

Additional observations from a re-analysis of the deposited data

Results flagged for a closer look

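The direct contrast of the drugs picked out 2 genes. For Fam150b, oxaliplatin was below cisplatin by a log2 difference of -0.58 (edgeR adjusted p = 0.0468), with 8.70, 9.43 and 9.25 CPM in the oxaliplatin libraries and 14.3, 12.9 and 13.8 CPM in the cisplatin libraries. For Prss34, a mast cell and basophil protease gene, the difference was -2.54 (edgeR adjusted p = 0.0495), with 0.147, 0.213 and 0.155 CPM in oxaliplatin and 1.23, 1.04 and 0.798 CPM in cisplatin. All 3 oxaliplatin libraries were under all 3 cisplatin libraries in both genes.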

How the results depend on the processing

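The count of 6625 genes passing both ways stayed within 1.5 times of that value under every alternative except the test against a 1.5-fold change, which left 377 (433 with and 508 without vehicle library 2), and the fit without vehicle library 1. Leaving out 1 library at a time gave 4220 (without vehicle library 1) to 6880 genes both ways, 5342 to 7697 in the all-library fit and 5254 to 7813 when vehicle library 2 was already left out. With a replicate block the count was 5829; same-numbered libraries deviated together with r = 0.10, 0.10 and -0.02, so the numbers were not taken to pair the libraries. By identity, 4361 of the 6625 genes (65.8%) kept their call in the all-library fit under every change of filter, tool, spread and left-out library, and 1661 (25.1%) when scaling, trend removal and gene restriction were added. A gene that a setting did not test counts here as not kept, as with every gene that is not protein-coding under the restriction to protein-coding genes.

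The count of 2 genes called between the drugs became 68 with library totals, 16 with no count filter and 15 with DESeq2. It was 1 with a 1 CPM filter and 1 with limma-voom. It was 0 with a replicate block, with protein-coding genes alone and with the 1.5-fold test. With vehicle library 1, vehicle library 3, oxaliplatin library 2 or oxaliplatin library 3 left out it was 0. Without oxaliplatin library 1 it was 2, both higher in oxaliplatin, so these were not Fam150b and Prss34, which were lower. No fit left out a cisplatin library. The cause was not tested.

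With library totals the log2 change turned to 0.023 for Aqp4, 0.080 for Bcl2, 0.010 for Cdh8, 0.059 for Ebf1, 0.19 for Fos, 0.25 for Gal, 0.12 for Gclc, 0.082 for Hsp90b1, 0.078 for Mdm2, 0.12 for Nfe2l2, 0.13 for Prss34, 0.25 for Slc31a1 and 0.23 for Trpv1. With length and GC trends removed the log2 change turned to 0.066 for Atr, 0.072 for Clock, -0.064 for Dctn3, -0.027 for Dynlrb1, 0.048 for Ebf1, -0.0065 for Hspb1, -0.046 for Hspb8, -0.0025 for Ifi27, -0.010 for Mt1, -0.033 for Nfkbia, -0.19 for Pvalb, 0.081 for Rora, -0.064 for Stmn3, 0.092 for Trpm3 and 0.064 for Trpm7. Fos turned to 0.068 with limma-voom. With 1 library left out at a time the log2 change ranged over both signs, from -0.45 to 0.47 for Fos, -0.14 to 0.045 for Gal, -0.44 to 0.32 for Prss34, -0.064 to 0.0051 for Slc31a1 and -5.63 to 0.35 for n-R5-8s1. These genes apart, the named genes kept their sign under the alternatives run.

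Depth limits genes near the floor, such as Npy, Sprr1a and Prss34, whose folds rest on few reads, and 3 pools a group limit the rest.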
